A study of Schizosaccharomyces pombe with 4 samples.

Results

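The genes of the mitochondrial ribosome of fission yeast were examined in cells lacking Sfp1, Ifh1 or Fhl1. Members were taken by name, as every gene whose symbol is mrpl, mrps, mrp, rsm or img followed by a number, and 56 of the 5129 genes in the deposited table met this rule. The reference annotation calls 55 of the 56 a mitochondrial ribosomal protein. It places 34 in the large subunit, among them all mrpl and img genes, and 21 in the small subunit. The remaining gene, rsm1, is annotated as a zinc finger RNA export factor; it met the rule by its symbol alone and was put in neither subunit. Of the 34 large-subunit members all were measured. Of the 21 small-subunit members 19 were measured, because mrps17 (uS17m) and mrps8 (uS8m) were listed at 0 in all 4 genotypes, as were 215 genes of the table. With rsm1, 54 members had a mean of at least 1 FPKM (fragments scaled by gene length and by library size) over the 4 genotypes and were compared.

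Mitochondria have their own ribosome, which translates the few proteins encoded in mitochondrial DNA, chiefly core subunits of the respiratory chain and of ATP synthase. In fungi almost all proteins of this ribosome are encoded in the nucleus, made by cytosolic ribosomes and imported into the organelle. Cytosolic ribosomal protein genes are a separate set, which in budding yeast is controlled by Sfp1 and by the pair Fhl1 and Ifh1.

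The samples were an sfp1 knockout, an ifh1 knockout, an fhl1 knockout and wild type (WT), all Schizosaccharomyces pombe in exponential growth without treatment. Further alleles of these strains are not given in the labels. Total RNA was sequenced, and the authors deposited, per gene and genotype, 1 FPKM value and a pair of bounds around it. There was 1 sample per genotype, so no difference has a replicate check and no test was made. Each deleted gene was near 0 in its own knockout: sfp1 had 0.0818 FPKM there against 261.0 in WT, ifh1 (SPAC22H10.11c) 0.556 against 127.5, and fhl1 0.0509 against 53.8. Depth is not stated. Of the bounds under 500 fragments 99.5% were within 0.05 of a whole multiple of a fixed step, taken here as 1 fragment, and on that scale the members had a median of 138.8 fragments in sfp1 knockout cells, 138.5 in ifh1 knockout cells, 119.5 in fhl1 knockout cells and 134.0 in WT. Of the 54 members, 32 had over 100 fragments in every genotype and 7 had under 50 in every genotype.

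As a class the mitochondrial ribosomal protein genes lay close to WT in each knockout. The median log2 ratio of the 54 members, computed on log2(FPKM + 1), was 0.03 in sfp1 knockout cells, 0.08 in ifh1 knockout cells and 0.03 in fhl1 knockout cells. Over all 4761 genes compared, it was -0.01, -0.01 and 0.02 in the same order. The quartiles of the members were -0.13 and 0.20 in sfp1 knockout cells, -0.13 and 0.25 in ifh1 knockout cells and -0.12 and 0.21 in fhl1 knockout cells. The members were divided between both directions, with 31, 32 and 31 of 54 above WT in knockouts of sfp1, ifh1 and fhl1. Of all genes, 48.5, 47.6 and 52.9% were above WT. The 3 comparisons share 1 WT sample, so they are not independent of each other. Because the RNA came from whole cultures and the values are relative, fewer cells of a kind and less RNA per cell cannot be told apart.

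Few members were far from WT. In the sfp1 knockout 0 of 54 members were at least 2-fold higher, against 3.11% of all genes, and 0 were at least 2-fold lower, against 2.5% of all genes. In the ifh1 knockout 0 members were at least 2-fold higher, against 1.6% of all genes, and 1 was at least 2-fold lower, against 2.84%. In the fhl1 knockout the counts were 0 higher, against 2.58% of all genes, and 1 lower, against 0.903%. The same gene, mrpl39, was the 1 lower in both, and it is described with the shortest genes. The shares of all genes are small enough that a list of 54 would hold few such genes at the same rates. Bounds that did not overlap those of WT were found for 0 members in each knockout, against 2.56, 1.68 and 0.798% of all genes in knockouts of sfp1, ifh1 and fhl1. A narrower limit shows the spread of the members better, although all genes were not matched to the members in level. In WT the quartiles were 80.2 and 131.0 FPKM for the members and 36.3 and 162.0 FPKM for all genes. Of the 54, 49, 49 and 51 lay within 0.5 of WT on the log2 scale in knockouts of sfp1, ifh1 and fhl1, that is 90.7, 90.7 and 94.4%, against 76.0, 82.2 and 86.6% of all genes.

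**Figure D1:**
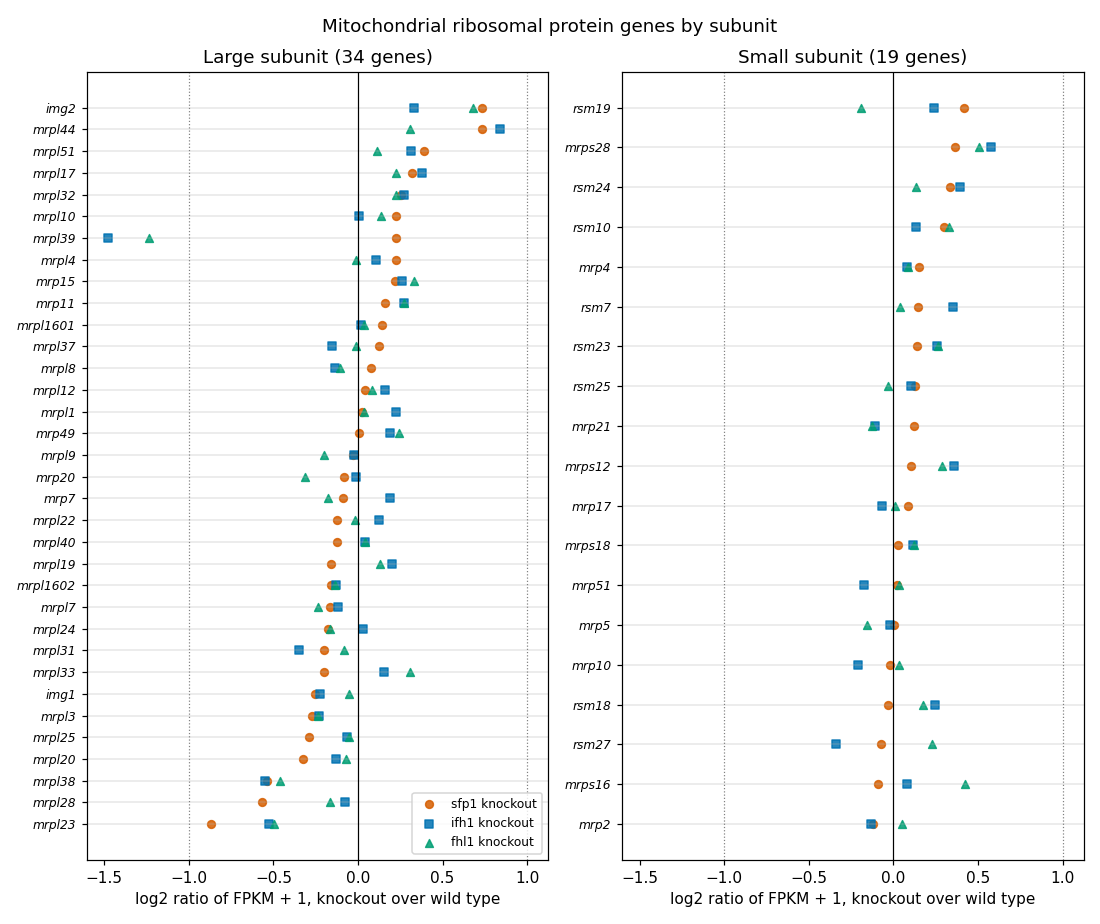
Log2 ratio to WT, on log2(FPKM + 1), of measured members of the large and the small subunit in knockouts of sfp1, ifh1 and fhl1. Most points lie within 0.5 of the WT line, and mrpl39 is the 1 member past 2-fold, at -1.48 in the ifh1 and -1.24 in the fhl1 knockout.

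Most members were moderately expressed, at similar levels in every genotype. Their median was 103.4 FPKM in sfp1 knockout cells, 107.5 in ifh1 knockout cells, 100.3 in fhl1 knockout cells and 103.7 in WT. In WT the members ran up from img2 at 9.28 FPKM to mrpl39 at 602.9 FPKM, but both ends were set by short genes, whose FPKM was raised by the length adjustment described further on. The midpoint of the 2 bounds carries no such adjustment. By midpoint the members had a median of 64.7, 65.7, 55.9 and 64.4 in knockouts of sfp1, ifh1 and fhl1 and WT, close to the median of all genes in WT, 57.6. Cytosolic ribosomal protein genes had a median midpoint of 1627, 1244 and 1532 in the 3 knockouts and 2447 in WT. Among members of at least 500 bp, where levels can be compared best, large-subunit genes had a median midpoint of 75.9, 71.8 and 76.1 in knockouts of sfp1, ifh1 and fhl1 and 80.2 in WT (n = 17). Small-subunit genes had 75.4, 79.6 and 67.8 in the same knockouts and 68.5 in WT (n = 11). The quartile ranges of the WT values overlapped between the subunits, at 63.6 to 83.5 for the large and 61.2 to 78.0 for the small subunit.

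The large-subunit members had a median log2 ratio to WT of -0.06 in sfp1 knockout cells, 0.02 in ifh1 knockout cells and -0.02 in fhl1 knockout cells, with 16, 19 and 15 of 34 above WT. The small-subunit members had 0.10, 0.11 and 0.09, with 14, 12 and 15 of 19 above WT. The small-subunit medians were thus the higher in each knockout. Single members had an SD of 0.29, 0.33 and 0.29 over all 54, which does not measure the uncertainty of a difference between medians. Genes of at least 500 bp showed the same order, at -0.03, 0.02 and -0.02 for 17 large-subunit members and 0.14, 0.13 and 0.12 for 11 small-subunit members. With the subunit genes under other names added, the medians lay closer, at 0.03, 0.04 and 0.03 for the large and 0.10, 0.06 and 0.04 for the small subunit. Whether the subunits differ was not tested.

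Among the large-subunit genes, mrpl23 had the lowest ratio of all members in the sfp1 knockout and was among the 3 lowest in the other knockouts. It encodes uL13m, a protein of the conserved ribosomal core, and lies at chromosome II, 4219903 to 4220418 in the coordinates of the table. It had 71.0 FPKM in sfp1 knockout cells, 90.4 in ifh1 knockout cells and 92.3 in fhl1 knockout cells, against 130.4 in WT. The log2 ratios were -0.87, -0.52 and -0.49. Every knockout was below WT and the sfp1 knockout was the lowest, on about 82 fragments there against 142.5 in WT, with bounds that overlapped. The gene mrpl38 (411 bp) is annotated as a putative subunit L38, and its deposited coding bounds differ from those of the reference. It had 155.1, 154.1 and 163.7 FPKM in knockouts of sfp1, ifh1 and fhl1, against 226.0 in WT. Its log2 ratios were nearly the same in each, at -0.54, -0.55 and -0.46. The gene mrpl28 (mL40) had 125.7 FPKM in sfp1 knockout cells, 177.4 in ifh1 knockout cells and 166.8 in fhl1 knockout cells, against 187.0 in WT. By FPKM the sfp1 knockout stood apart from the other samples, at -0.57 against -0.08 and -0.16 in the ifh1 and fhl1 knockouts. However, mrpl28 has 357 bp, and by midpoint its log2 ratios were -0.45, 0.08 and -0.28 in knockouts of sfp1, ifh1 and fhl1. On that scale the sfp1 and fhl1 knockouts lay nearer to each other, on about 71.5 and 80.5 fragments, against 98 in WT.

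Smaller differences below WT were found for mrpl20 (mL58), with log2 ratios of -0.32, -0.13 and -0.07 in knockouts of sfp1, ifh1 and fhl1. The gene mrpl31 (mL60) had -0.20, -0.35 and -0.09 in the same order. For mrp20, which encodes uL23m, a protein beside the exit of the peptide tunnel, the ratios were -0.08, -0.01 and -0.32. By FPKM each of these 3 genes was below WT in all knockouts, the largest difference falling in a different knockout for each. By midpoint mrp20 (486 bp) had log2 ratios of 0.02, 0.06 and -0.28 in knockouts of sfp1, ifh1 and fhl1. It was thus below WT only in the fhl1 knockout on that scale. The longest large-subunit gene, mrpl3 (mL44, 981 bp), had 78.2, 80.2 and 80.2 FPKM in knockouts of sfp1, ifh1 and fhl1, against 94.5 in WT. Its 3 knockout values were almost equal.

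On the higher side, mrpl44 (mL53) had 114.4 FPKM in sfp1 knockout cells, 123.4 in ifh1 knockout cells and 84.8 in fhl1 knockout cells, against 68.4 in WT. The log2 ratios were 0.73, 0.84 and 0.31. All knockouts were above WT, but the gene has 303 bp and the WT value rests on about 22 fragments. The gene img2 (mL49, 318 bp) had 16.1, 11.9 and 15.5 FPKM in knockouts of sfp1, ifh1 and fhl1, against 9.28 in WT. It was the least expressed measured member, with about 9, 8 and 7 fragments in the knockouts and 6 in WT, so its log2 ratios of 0.74, 0.33 and 0.68 rest on a difference of at most a few fragments. The gene mrpl17 (mL46, 807 bp) had 50.1, 52.4 and 46.9 FPKM in knockouts of sfp1, ifh1 and fhl1, against 40.0 in WT. For mrp15 (mL57) the values were 133.1, 137.1 and 143.9 FPKM in the same knockouts, against 114.4 in WT. Both were above WT in every knockout, by log2 ratios between 0.22 and 0.38.

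Other large-subunit genes had no common direction. The gene mrpl19, for uL11m of the stalk base, had 181.7 FPKM in sfp1 knockout cells, 233.7 in ifh1 knockout cells and 222.1 in fhl1 knockout cells, against 203.2 in WT. It was thus below WT in the sfp1 knockout and above it in the other knockouts. The gene mrpl10 (uL15m) had log2 ratios of 0.22, 0.01 and 0.14 in knockouts of sfp1, ifh1 and fhl1. The paired names mrpl1601 and mrpl1602 denote different proteins, uL16m and uL6m, and had ratios of 0.14, 0.02 and 0.03 and of -0.16, -0.13 and -0.14.

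In the small subunit the member farthest above WT in the ifh1 and fhl1 knockouts was mrps28, which encodes uS15m and lies at chromosome II, 1491955 to 1492821. It had 85.7 FPKM in sfp1 knockout cells, 99.6 in ifh1 knockout cells and 94.8 in fhl1 knockout cells, against 66.4 in WT. Its log2 ratios were 0.36, 0.58 and 0.51. All knockouts were above WT, and with 867 bp it is one of the longer members. The bounds overlapped, at 46.3 to 98.1 in the sfp1 knockout, 54.5 to 111 in the ifh1 knockout and 50.1 to 105 in the fhl1 knockout, against 34.8 to 78.1 in WT. The gene rsm24 (mS35, 777 bp) had 119.7, 124.9 and 104.1 FPKM in knockouts of sfp1, ifh1 and fhl1, against 94.7 in WT. Its ratios were 0.33, 0.40 and 0.13, all above WT and lowest in the fhl1 knockout.

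The gene rsm23 (mS29), the longest small-subunit member at 1431 bp, is also the one measured on the most fragments, about 762, 790 and 820 in knockouts of sfp1, ifh1 and fhl1 and 687 in WT. It had 126.8, 137.6 and 138.1 FPKM in these knockouts, against 114.9 in WT, with log2 ratios of 0.14, 0.26 and 0.26. The gene rsm10, for uS10m, was the least expressed measured small-subunit gene at 29.7, 26.4 and 30.3 FPKM in the knockouts, against 23.9 in WT. Both were somewhat above WT in every knockout.

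The gene rsm19 (uS19m, 282 bp) had 362.2 FPKM in sfp1 knockout cells, 320.8 in ifh1 knockout cells and 237.0 in fhl1 knockout cells, against 271.4 in WT. It was above WT in the sfp1 and ifh1 knockouts and below it in the fhl1 knockout. The gene mrps16, for subunit S16 (291 bp), had 172.3 FPKM in sfp1 knockout cells, 194.6 in ifh1 knockout cells and 246.5 in fhl1 knockout cells, against 183.7 in WT. The fhl1 knockout was highest by FPKM only, since the midpoints of mrps16 were 37.1, 46.9 and 46.5 in the knockouts, against 36.3 in WT. The shortest measured small-subunit gene, mrp10 (mS37, 267 bp), had 227.6, 199.1 and 235.8 FPKM in knockouts of sfp1, ifh1 and fhl1, against 230.7 in WT. For mrp2 (uS14m) the values were 254.1, 252.2 and 286.0 FPKM in the same knockouts, against 276.0 in WT. These values differed little between genotypes. The same was seen for mrps18, annotated as a putative subunit S18, with 61.2, 65.1 and 65.5 FPKM in the knockouts against 60.1 in WT, and for mrp17 (bS6m), with 69.3, 62.1 and 65.7 FPKM in the knockouts against 65.2 in WT.

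The export factor gene rsm1 had 44.2 FPKM in sfp1 knockout cells, 41.0 in ifh1 knockout cells and 34.1 in fhl1 knockout cells, against 31.5 in WT. Its log2 ratios of 0.48, 0.37 and 0.11 were above the class medians of 0.03, 0.08 and 0.03, so it did not lower the median of the class.

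Gene length bore on these values, because the coding length of the members was a median of 511.5 bp, against 1137 bp over all genes, and 17 of 34 large-subunit and 10 of 21 small-subunit members had under 500 bp. Deposited FPKM exceeded the midpoint of its bounds more the shorter the gene. For members under 300 bp the median ratio of FPKM to midpoint was 5.33, 5.001 and 5.72 in knockouts of sfp1, ifh1 and fhl1 and 5.66 in WT. From 300 to 500 bp it was 2.003, 1.998 and 2.18 in the knockouts and 2.07 in WT, and from 800 bp it was 1.19, 1.15 and 1.19 in the knockouts and 1.18 in WT. In WT 34 of the 54 members had an FPKM above their own upper bound. These 34 had at most 648 bp, and every other measured member had 651 bp or more. Levels of short members are therefore not comparable with those of long ones. The adjustment also differed between genotypes and so does not cancel in ratios: over all genes under 300 bp its median was 7.30, 6.54 and 8.75 in knockouts of sfp1, ifh1 and fhl1 and 7.76 in WT.

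**Figure D2:**
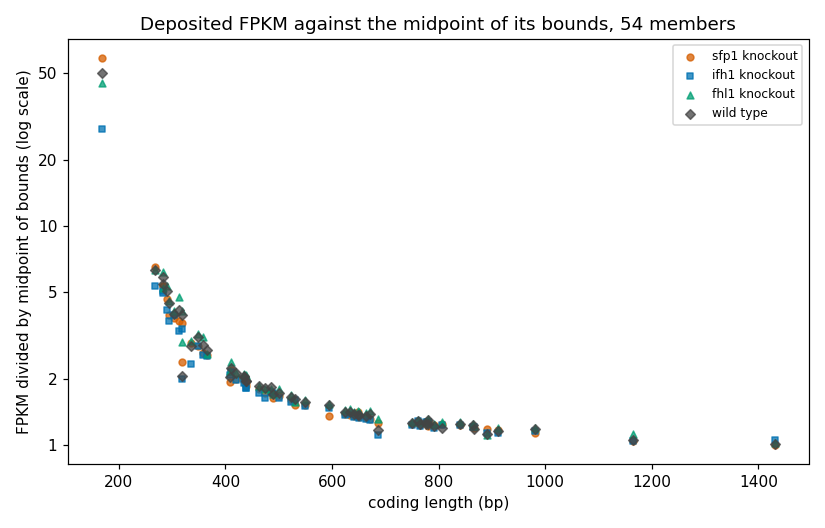
Ratio of deposited FPKM to the midpoint of its bounds (log axis) against coding length in bp, for the measured members in each genotype. The median ratio is between 1.15 and 1.19 from 800 bp on and between 5.001 and 5.72 for members under 300 bp, over the knockouts and WT.

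The gene mrpl39 shows what this does to a single value. It encodes bL33m, has 168 bp, the shortest coding length of all members, and lies at chromosome II, 2700973 to 2701249. It had 704.4 FPKM in sfp1 knockout cells, 215.5 in ifh1 knockout cells and 255.1 in fhl1 knockout cells, against 602.9 in WT. The ifh1 and fhl1 knockouts were far below both other samples, with log2 ratios of -1.48 and -1.24 against 0.22 in the sfp1 knockout. These values rest on about 8.5, 5.5 and 4 fragments in knockouts of sfp1, ifh1 and fhl1 and 8.5 in WT. By midpoint it had 12.02, 7.77 and 5.65 in the knockouts and 12.02 in WT, with log2 ratios of 0.00, -0.57 and -0.97 on log2(midpoint + 1). The added 1 weighs at such low values: it put the fhl1 knockout inside the 2-fold limit, while the bare midpoints of the fhl1 knockout and WT were more than 2-fold apart.

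**Figure D3:**
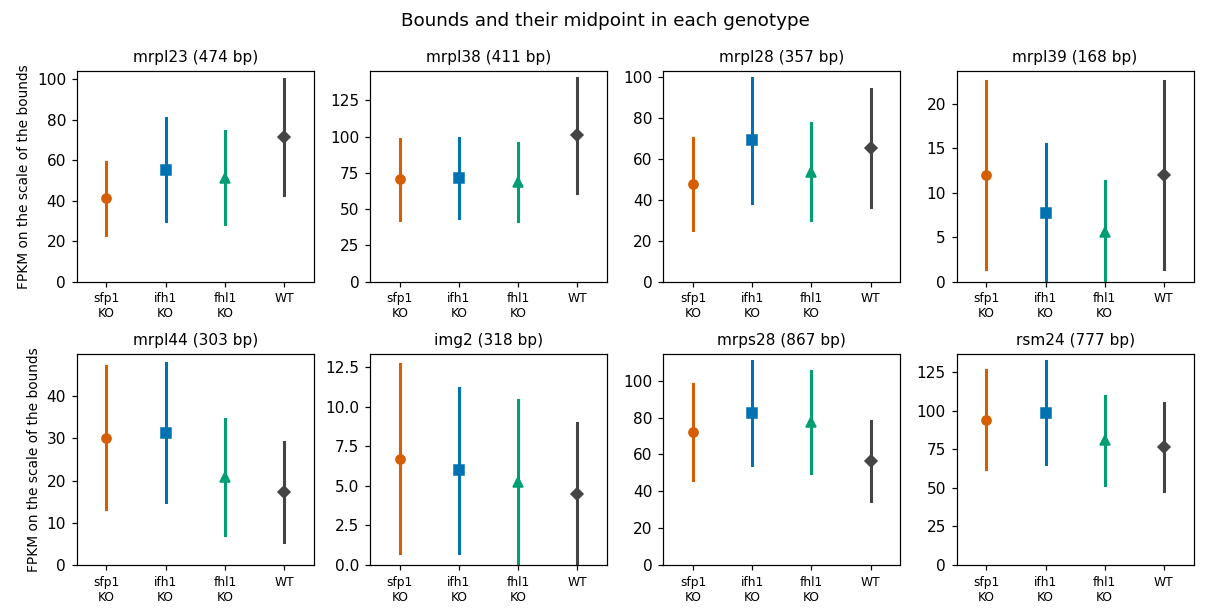
Lower and upper bounds (lines) and their midpoint (points), in FPKM, of 8 members in knockouts of sfp1, ifh1 and fhl1 and WT. The bounds of the knockouts overlap those of WT for all 8 genes shown, from mrpl39 with a few fragments to mrps28.

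Leaving the short genes aside left the class near WT. The 29 members of at least 500 bp had a median log2 ratio of 0.04 in sfp1 knockout cells, 0.11 in ifh1 knockout cells and 0.04 in fhl1 knockout cells. Their SD was 0.20, 0.21 and 0.18, against 0.46, 0.40 and 0.33 over all genes of that length, again not matched in level. Of the 29 members, 29, 28 and 28 lay within 0.5 of WT. The 6 members under 300 bp had medians of -0.05, -0.06 and 0.13 in knockouts of sfp1, ifh1 and fhl1, and the 19 members of 300 to 500 bp had 0.01, -0.01 and -0.01. All 210 genes under 300 bp had 0.05, 0.00 and 0.32. By midpoint the 6 members had 0.02, 0.19 and 0.09 and the 210 genes 0.12, 0.15 and 0.11, so the median of all short genes in the fhl1 knockout was lower on that scale.

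**Figure D4:**
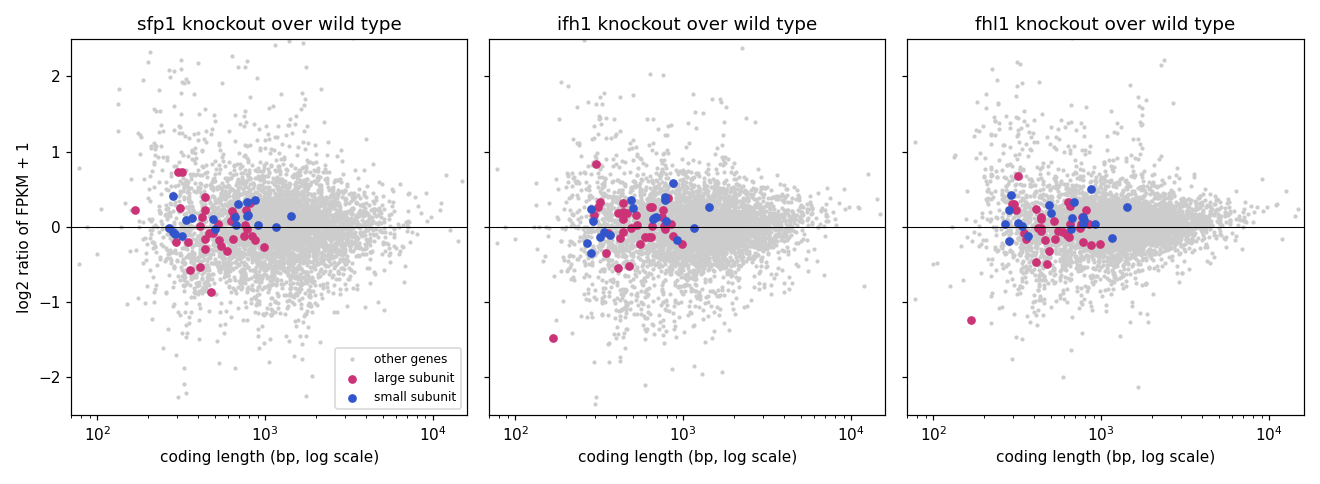
Log2 ratio to WT against coding length in bp for the members of each subunit, over all other genes, in knockouts of sfp1, ifh1 and fhl1 (ratios beyond 2.5 are outside the axis). The members spread most under 500 bp. Counting rsm1, which is in neither subunit, 29, 28 and 28 of the 29 members from 500 bp on have ratios within 0.5 of WT.

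The cytosolic ribosomal protein genes gave another picture in the same samples. Their median log2 ratio was -0.60 in sfp1 knockout cells, -0.96 in ifh1 knockout cells and -0.58 in fhl1 knockout cells (n = 136), and 2, 2 and 4 of the 136 were above WT. At least 2-fold lower were 3, 57 and 9 of them, against 2.5, 2.84 and 0.903% of all genes, so that in the sfp1 knockout this count was near the share of all genes. Both cytosolic subunits lay alike, at -0.58, -0.92 and -0.57 for 81 large-subunit genes and -0.62, -0.98 and -0.60 for 55 small-subunit genes. Many of these genes have near-identical copies, between which the counting could split reads, so single values are uncertain. The mitochondrial class, at 0.03, 0.08 and 0.03, was nearer to the nuclear genes of the respiratory chain and ATP synthase, which had 0.09, 0.10 and 0.17 (n = 50). With 1 sample per genotype the difference between the classes has no test.

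**Figure D5:**
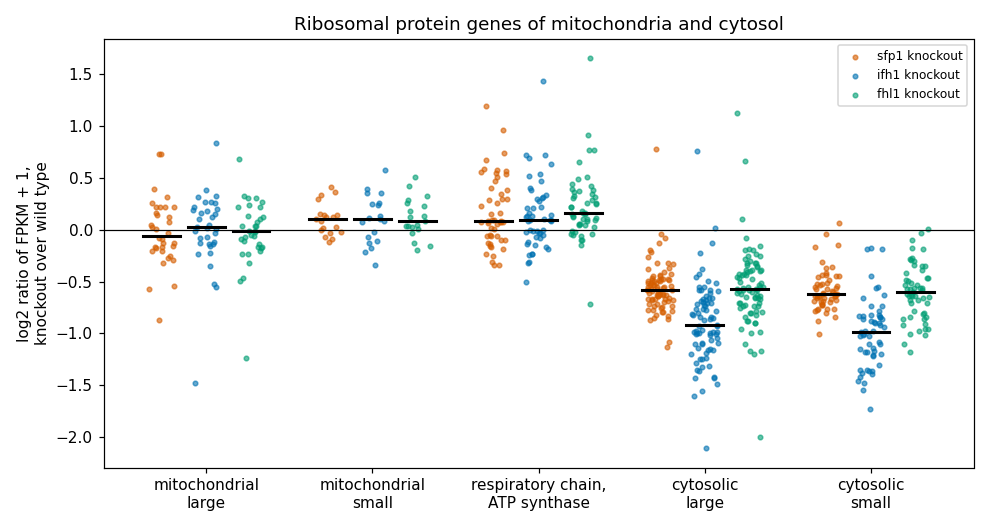
Log2 ratio to WT of each gene in the 3 knockouts for mitochondrial ribosomal proteins, cytosolic ribosomal proteins and nuclear respiratory chain genes, with bars at the medians. Taken over both subunits together, the mitochondrial class has medians of 0.03, 0.08 and 0.03 in knockouts of sfp1, ifh1 and fhl1. The cytosolic class, also over both subunits, has -0.60, -0.96 and -0.58.

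Summed over genes, the midpoints of the members came to 3296 in sfp1 knockout cells, 3471 in ifh1 knockout cells and 3163 in fhl1 knockout cells, against 3208 in WT. As a percentage of the sum over cytosolic ribosomal protein genes this was 1.39, 1.85 and 1.36% in knockouts of sfp1, ifh1 and fhl1, against 0.924% in WT. The cytosolic sum was lower in these knockouts, at 26.1, 22.7 and 25.5% of all midpoints, against 30.8% in WT. The members' own share of all midpoints was higher, at 0.363, 0.421 and 0.348% in the same knockouts, against 0.285% in WT. The sum of all midpoints was itself lower, at 907236, 824107 and 909605 in these knockouts, against 1126320 in WT. When the values were scaled to the sum of FPKM outside the cytosolic ribosomal protein genes, the median of the members was 0.23, 0.38 and 0.17 in knockouts of sfp1, ifh1 and fhl1 and that of all genes was 0.19, 0.28 and 0.15, so the members lay 0.04, 0.10 and 0.02 above all genes.

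The upstream sequences of the members also differed from those of the cytosolic ribosomal protein genes. The HomolD box, CAGTCACA, is an element of fission yeast ribosomal protein promoters, and it was searched with the HomolE core, CCCTACCC, and a TATA box, TATAAA, on both strands of the 250 bases before each annotated transcript start. No motif of the 3 contains another, and for img2 and mrpl44 the annotated start is that of the coding sequence. HomolD was found in 0 of 56 members, against 64.0% of 136 cytosolic ribosomal protein genes and 2.62% of all 5110 promoters. The HomolE core was in 1.79% of the members, which is mrp51 alone, against 35.3% of the cytosolic genes and 1.55% of all promoters. TATAAA was in 28 of 56 members, or 50%, against 25% of the cytosolic genes and 44.3% of all promoters. A match is a description of letters and no match says nothing of the factors. In the cytosolic genes HomolD began at a median of 51 bases before the start. The 150 bases before the start are shown for mrps28, a member above WT in every knockout, for mrp51, the member with the HomolE core, and for rps1402, a cytosolic small-subunit gene, with matches to the 3 motifs in capitals (RefSeq sequence, ASM294v3, each 5′ to 3′ on the strand of its gene).
mrps28, chrII:1492926-1493075, minus strand: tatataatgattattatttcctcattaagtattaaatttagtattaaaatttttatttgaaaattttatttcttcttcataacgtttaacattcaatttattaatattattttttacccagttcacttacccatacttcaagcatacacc
mrp51, chrI:4113659-4113808, minus strand: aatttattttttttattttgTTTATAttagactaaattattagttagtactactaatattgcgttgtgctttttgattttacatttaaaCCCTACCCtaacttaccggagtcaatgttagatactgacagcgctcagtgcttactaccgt
rps1402, chrII:1792213-1792362, plus strand: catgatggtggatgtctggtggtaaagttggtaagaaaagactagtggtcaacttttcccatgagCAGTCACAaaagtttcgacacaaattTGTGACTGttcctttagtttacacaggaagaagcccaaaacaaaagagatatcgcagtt
The stretch of mrps28 holds none of the 3 motifs, that of mrp51 holds a TATA match on the other strand and the HomolE core, and that of rps1402 holds HomolD on both strands. The gene mrp51 (bS1m) had 80.2, 69.9 and 80.9 FPKM in knockouts of sfp1, ifh1 and fhl1, against 79.0 in WT, with log2 ratios of 0.02, -0.17 and 0.03.

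Between the knockouts the members again lay close together. Their median log2 ratio was -0.04 for sfp1 over ifh1, -0.02 for sfp1 over fhl1 and 0.00 for ifh1 over fhl1. All genes had 0.03, -0.03 and -0.05, and the cytosolic ribosomal protein genes had 0.36, -0.02 and -0.36, since they were lowest in the ifh1 knockout. For sfp1 over ifh1, 22 of 54 members were above 0, against 53.4% of all genes, and 53 lay within 0.5 of 0, against 80.1%. In that comparison 1 member was at least 2-fold higher, mrpl39 at 1.70, against 2.46% of all genes, and 0 were at least 2-fold lower, against 2.08%. For sfp1 over fhl1, 24 members were above 0, against 45.3% of all genes, and 50 lay within 0.5 of 0, against 85.8%. Again mrpl39, at 1.46, was the 1 member at least 2-fold higher, against 1.2% of all genes, and 0 were at least 2-fold lower, against 1.91%. For ifh1 over fhl1, 28 members were above 0, against 40.3% of all genes, and 52 lay within 0.5 of 0, against 92.5%. Here 0 members were 2-fold apart in either direction, against 0.42% of all genes higher and 1.39% lower, and the member farthest apart was rsm27 (mS33) at -0.57, or -0.26 by midpoint. Bounds that did not overlap were found for 0 members in each of these comparisons, against 2.84, 1.39 and 0.399% of all genes.

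The reference annotation gives 23 more genes of mitochondrial ribosomal proteins under other names, and 22 of them were measured. They had a median log2 ratio of 0.15 in sfp1 knockout cells, -0.07 in ifh1 knockout cells and 0.08 in fhl1 knockout cells. The gene SPBC4B4.11 (mS41) had 1.38, 2.63 and 3.14 FPKM in knockouts of sfp1, ifh1 and fhl1, against 5.35 in WT. It was the 1 such gene past 2-fold in the sfp1 knockout, at -1.42, but on about 1.5 fragments there and 5 in WT. The gene new15 (bL35m) had 89.4, 38.6 and 93.2 FPKM in the same knockouts, against 46.5 in WT. It was higher in the sfp1 and fhl1 knockouts, at 0.93 and 0.99, and lower in the ifh1 knockout, at -0.26. With these genes added and rsm1 left out, the class of 75 measured genes had medians of 0.08, 0.03 and 0.03.

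Other genes of mitochondrial gene expression were taken from lists by name. The 8 measured translation factors had medians of 0.02, 0.05 and -0.01 in knockouts of sfp1, ifh1 and fhl1. Among them tuf1, the elongation factor that delivers aminoacyl-tRNA, had 340.3, 346.1 and 381.1 FPKM in the knockouts, against 430.1 in WT. The ribosome recycling factor rrf1 had 40.8, 40.9 and 37.6 FPKM in the knockouts, against 28.6 in WT. The 2 genes thus differed from WT in opposite directions.

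The 9 pentatricopeptide repeat genes, whose products bind mitochondrial RNAs, had medians of 0.15, 0.16 and 0.14. Of these ppr8 had 215.6 FPKM in sfp1 knockout cells, 134.0 in ifh1 knockout cells and 144.2 in fhl1 knockout cells, against 134.9 in WT, so that the sfp1 knockout was apart at 0.67. The gene ppr6 had 45.3, 53.1 and 47.8 FPKM in the knockouts, against 34.6 in WT. The 5 genes of mitochondrial ribosome assembly had medians of -0.26, 0.01 and -0.04, and mrm1, an rRNA methyltransferase in this list, had -0.41 in the sfp1 knockout. The 6 genes of mitochondrial transcription and genome maintenance had -0.18, -0.05 and -0.04, and in the sfp1 knockout mtf2 was at -0.51 and pog1, the mitochondrial DNA polymerase, at -0.39.

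In the annotation the members were spread over all chromosomes, with 22 on I, 22 on II and 12 on III. Of the 56, 25 have introns in the coding sequence, or 44.6%, against 46.8% of all genes. Another annotated gene on the other strand overlaps 41 of the 56, or 73.2%, against 81.3% of all genes, and 0 overlap a gene on the same strand. The sources used here do not give how the authors' counting treated such overlaps.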

How the data were processed

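Total RNA of 4 genotypes was sequenced. The authors deposited FPKM with lower and upper bounds, per gene and genotype, in 1 table; TopHat2 2.0.9 and Cufflinks 2.1.1 were used, per the submitters' processing notes. The sources used here do not give their roles, a genome build or an annotation. The table's name mentions 2 replicates, whose combination is not stated. The crf1d columns were read as ifh1 knockout, since crf1 is a synonym of ifh1.

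Starts were made 1-based. All 56 members were found in ASM294v3, 54 with the same coding bounds and mrpl38 and mrps18 with different ones. A step, taken as 1 fragment on full length, divided 99.466% of the 24533 bounds below 500 fragments to within 0.05 of a whole number. The midpoint of the bounds therefore served as a second scale. The true depth is unknown.

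Ratios were computed on log2(FPKM + 1) without further scaling, for genes averaging 1 FPKM or more over the genotypes, with a 2-fold limit and no test, in Python 3.11.15 with pandas 2.3.3 and numpy 2.4.6, checked on simulated data. Members were named by fixed rules: the 3 highest and 3 lowest WT levels per subunit and the 4 largest and smallest ratios per knockout. The longest, the shortest and any past the limit were also named. From each other list the gene farthest from WT was picked per knockout, but the picks atp18, mtg2, rpl1603 and rpp202 are not described above. Of these, the ATP synthase gene atp18 had log2 ratios of 1.19, 1.44 and 1.66 in knockouts of sfp1, ifh1 and fhl1. The cytosolic gene rpl1603 had -0.57, -2.11 and -2.00. The genes mrp51, mrpl1601, mrpl1602 and rsm27 were named for other features, and tuf1 was named outside the rules. The members and lists were chosen with earlier results of these data known, and names that the reference annotates otherwise were dropped from the lists.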

Additional observations from a re-analysis of the deposited data

How the results depend on the processing

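Each median and count was recomputed under 10 alternatives listed at the start and 5 added after the data were seen, in 270 values. Of these, 246 stayed within the interval of the main median (95% binomial, over members) or within 1.5 times the main count. A minimum mean of 10 FPKM kept the same 54 members, so its values could not move. Counting rsm1 in the small subunit could change only the small-subunit medians. The interval takes members of the same samples as independent, so 246 does not measure how far the results would repeat in other samples. Scaling to the sum of FPKM outside the cytosolic ribosomal protein genes gave medians for all, large-subunit and small-subunit members of 0.23, 0.15 and 0.31 in the sfp1 knockout and 0.38, 0.33 and 0.41 in the ifh1 knockout, and of 0.17 for all and 0.12 for large-subunit members in the fhl1 knockout. It also gave -0.13 for sfp1 over ifh1, 0.17 for ifh1 over fhl1 and 1 member at least 2-fold higher in the ifh1 knockout; the median of all genes moved with it to 0.19, 0.28 and 0.15 in knockouts of sfp1, ifh1 and fhl1. On log2(midpoint + 1) the counts at least 2-fold lower were 0 in the ifh1 and 0 in the fhl1 knockout, and the median of ifh1 over fhl1 was 0.13, or 0.085 for members of at least 500 bp. Those counts were also 0 and 0 for members of at least 500 bp, for those of at least 800 bp, for midpoints of members of at least 500 bp and without mrpl39, since each of these sets lacks that gene. With the genes under other names, sfp1 knockout cells had 1 gene at least 2-fold lower. Across all settings the median of the members ran between 0.02 and 0.23 in the sfp1, between 0.04 and 0.38 in the ifh1 and between 0.01 and 0.17 in the fhl1 knockout. Large-subunit medians lay on either side of 0, at -0.15 to 0.15, -0.04 to 0.33 and -0.10 to 0.12 in the same order. No paired analysis was possible because each genotype has 1 sample. Members with under 50 fragments are limited by depth.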
